A study of Ciona robusta with 15 samples.

Results

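Whole embryos of the ascidian Ciona robusta in which Bra, Foxa.a and Mnx had been placed together in the nervous system were compared with embryos that carried a fluorescent reporter in the same cells. The comparison takes 6 of the 15 libraries of the series, chosen by their labels. They are 3 control libraries (Etr1>H2B-Venus) and 3 libraries of embryos given Etr1>Venus-Bra, Etr1>Foxa.a-Myc and Etr1>Mnx-HA. The other 9 libraries, 3 each of Bra (Etr1>Venus-Bra), Bra+Foxa.a (Etr1>Venus-Bra with Etr1>Foxa.a-Myc) and Bra+Mnx (Etr1>Venus-Bra with Etr1>Mnx-HA), serve only to show where the 3-factor embryos differ from embryos given fewer factors. In every group, controls included, plasmid DNA was put into fertilised eggs by electroporation, the embryos grew at 21 °C, and 300 embryos per sample were pooled at Hotta stage 19.5.

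Bra (Brachyury) is the T-box factor that specifies the notochord, the rod of vacuolated cells that stiffens the tail of chordate embryos. Foxa.a is a forkhead factor of the early vegetal embryo, transcribed in endoderm, notochord and ventral nerve cord precursors, and Mnx is a homeodomain factor best known in vertebrates from motor neurons and from the notochord and gut. The series asks how Bra works with other regulators in setting notochord fate. The Etr1 enhancer comes from Celf3/4/5/6, a gene for an RNA-binding protein of the ascidian nervous system, so the factors were made in neural cells while RNA was taken from the whole embryo. A change in neural or notochord genes is therefore read against all other tissues. In such bulk samples, fewer cells of a type and less RNA per cell cannot be told apart.

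Values are normalised reads, that is, reads per gene model divided by a size factor of the library. The 6 libraries held 17924786 to 25752608 reads on 15284 gene models, of which 441 had no read in any of the 6. The 10 most abundant genes took 9.17% to 9.72% of the reads, and 14184 to 14347 gene models had at least 1 read in a library. Same-numbered control and 3-factor libraries deviated from their group means together (r from 0.551 to 0.599 across 14213 genes). The replicate number was a block because the plan of the comparison pairs same-numbered replicates. The samples of a group are biological replicates by their labels, with no further detail. With the block, p-values rest only on the spread left once effects shared by same-numbered libraries are removed. The estimate of that spread draws on all genes, and the spread may be partly technical. Names are given to 17 gene models only, and the pairing of each name with its KH identifier was not checked against an annotation.

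Across the 14213 gene models with a mean of at least 1 normalised read, 1117 (7.86%) were higher in 3-factor embryos than in control and 949 (6.68%) were lower, at an adjusted p under 0.05 (limma with the replicate block, Benjamini-Hochberg). Together these are 2066 gene models, 14.5% of those tested. Increases were larger than decreases. The median absolute log2 change was 0.814 among genes called higher and 0.51 among genes called lower. A change of at least 2-fold was seen in 477 of the former and 174 of the latter. The largest increase was 6.5 on the log2 scale and the largest decrease 2.56. Fold changes were taken on log2(value + 1), so those of weakly expressed genes are understated. The median log2 change of all tested genes was -0.00045. Without the replicate block 401 genes were called higher and 165 lower, and all 566 were among the calls made with it. Without the libraries of replicate 2, 614 genes were called lower.

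Genes called higher had a low level in control about as often as all tested genes. The control mean was under 20 normalised reads in 213 of them (19.1%), beside 18.1% of all tested genes. It was under 20 in 12 of the genes called lower, but a gene that is near 0 in control has little room to fall. In 92 of the genes called higher the control mean was under 5, and of these 34 reached a mean of at least 20 in 3-factor embryos and 2 reached at least 100, the highest at 257. As a share of all reads, genes called higher took 7.04%, 7.33% and 6.91% of reads in control replicates 1, 2 and 3, and 10.9%, 10.4% and 11.2% in the 3-factor replicates. Genes called lower took 9.15%, 9.34% and 9.38% in control and 6.6%, 7.22% and 6.84% with the 3 factors. These shares describe the called genes and, since the calls chose them, test nothing. Of the genes called higher, 5 had no read in any control library, with 3-factor means from 3.8 to 42.8 normalised reads.

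Calls were spread unevenly over expression levels. Among the 2468 gene models with a mean under 20 normalised reads, 106 (4.29%) were called higher and 20 (0.81%) lower. Among the 2123 with a mean of 2000 or more, 209 (9.84%) were higher and 216 (10.2%) lower. The precision differed in the same direction: the median standard error of the log2 change was 0.472 in the first class and 0.068 in the second. The median log2 change of the called genes was 0.441 (higher) and -0.348 (lower) in the highest class, against 2.16 and -1.47 in the lowest.

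**Figure D1:**
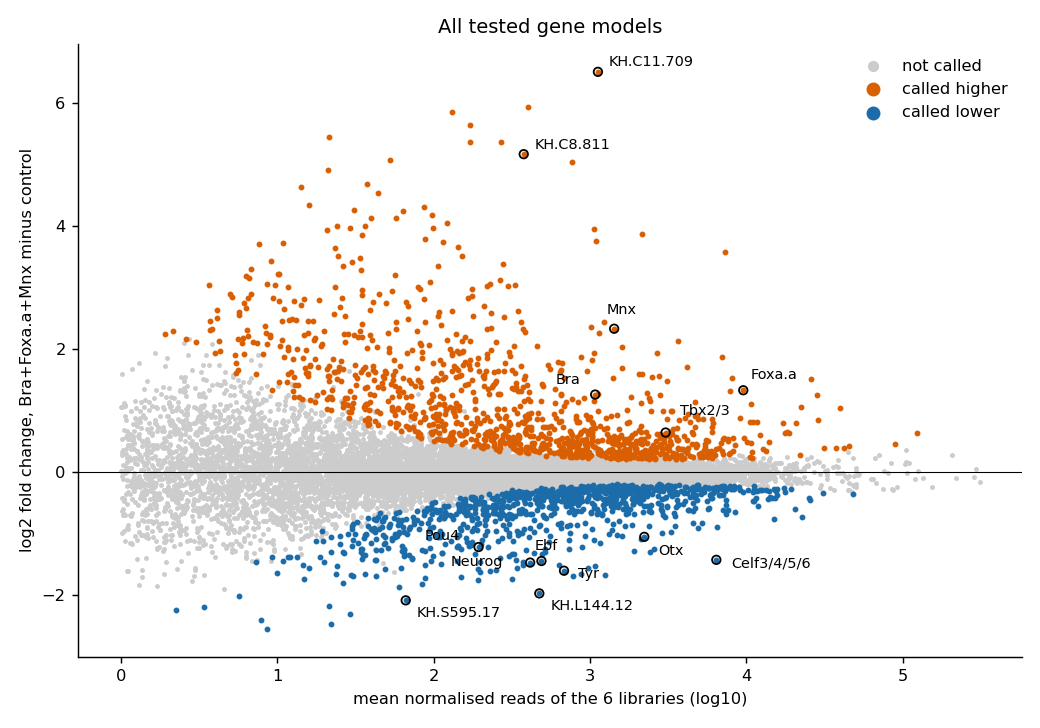
Each point is 1 of the 14213 tested gene models: the x axis gives the mean normalised reads of the 6 libraries (log10), the y axis the fitted log2 fold change (3 factors minus control). Orange points were called higher (1117), blue points lower (949) and grey points were not called; the increases reach 6.5, and the decreases stop at 2.56 below 0.

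The electroporated genes come first, as a check of the labels. Their reads may come from the plasmid or from the embryo's own gene, with no way to separate them in these values, and the controls too had reads of each gene. Bra (KH.S1404.1) had 601, 779 and 547 normalised reads in control replicates 1, 2 and 3, and 1522, 1593 and 1432 in the 3-factor replicates. It rose by 1.25 ± 0.08 on the log2 scale (fitted value ± standard error, adjusted p = 4.97e-06). Foxa.a (KH.C11.313) went from 5212, 5755 and 5392 to 14672, 13038 and 13203, an increase of 1.32 ± 0.08 (adjusted p = 2.59e-06). All 3 libraries with the factors stood far above the controls for both genes, at 2.36 times the control mean for Bra and 2.50 times for Foxa.a. Mnx (KH.L128.12) moved most, from 406, 460.3 and 560.4 to 2746, 2168 and 2218, which is 4.999 times the control mean and 2.32 ± 0.12 on the log2 scale (adjusted p = 1.33e-06). The study chose these genes, so their direction checks the labels at most. For Foxa.a the direction alone does not do so. In a limma fit of all 15 libraries it was also above control in groups not given its plasmid. The change was 0.37 with Bra (adjusted p = 0.0223) and 0.62 with Bra+Mnx (adjusted p = 2.19e-04). Mnx was not above control where it was not given (-0.25 with Bra, -0.79 with Bra+Foxa.a).

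Celf3/4/5/6 (KH.C6.128), the gene whose enhancer drives the plasmids, fell. Its controls had 8282, 9791 and 10029 normalised reads and the 3-factor libraries 3136, 4048 and 3232, so the mean dropped from 9367 ± 947 to 3472 ± 501 (SD, n = 3), or 37.1% of control. The log2 change was -1.44 ± 0.08 (adjusted p = 1.79e-06). The groups were widely separated, and each pair moved alike, by -1.40, -1.27 and -1.63. The 1 listed notochord gene, Tbx2/3 (KH.L96.87), rose; it encodes a T-box factor transcribed in the ascidian notochord. It went from 2140.0, 2631 and 2393 to 3572, 3841 and 3677 normalised reads, with a log2 change of 0.63 ± 0.06 (adjusted p = 7.96e-05). Every 3-factor library was above every control.

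All 7 listed neural genes fell, with a median log2 change of -1.23 where all tested genes had -0.00045, and beside 6.68% of all tested genes called lower. In 5 of the 7 the groups did not overlap, with all 3-factor libraries below all controls, as in 7.53% of all tested genes. The list was chosen with earlier results of these data known, and the counts describe it without testing it. Neurog (KH.C6.129), a proneural basic helix-loop-helix factor, had 609, 580.0 and 642 normalised reads in control and 211, 223 and 219 with the 3 factors. The mean went from 610.2 ± 31.0 to 218 ± 5.93 (SD, n = 3), 35.7% of control, with little spread in either group. The log2 change was -1.48 ± 0.09 (adjusted p = 2.83e-06). Ebf (KH.L24.10), a COE-family factor of differentiating neurons, had 623, 705 and 816 reads in control and 214, 335 and 240.3 with the factors. It fell by 1.46 ± 0.12 (adjusted p = 2.20e-05), more in pairs 1 and 3 (-1.53 and -1.76) than in pair 2 (-1.07).

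Pou4 (KH.C2.42), a POU homeodomain factor of sensory neurons, went from 241, 346 and 233 normalised reads to 102, 123 and 119. Its log2 change was -1.23 ± 0.13 (adjusted p = 1.14e-04), and the lowest control library was well above the highest 3-factor library. Otx (KH.C4.84), which encodes a homeodomain protein of the anterior brain, went from 2630.0, 3092 and 3300.5 to 1387, 1562 and 1361, 47.8% of the control mean, by -1.06 ± 0.08 (adjusted p = 9.14e-06). Tyr (KH.C12.469) encodes tyrosinase, which makes melanin in the pigment cells of the sensory vesicle. It had the largest log2 decrease of the 17 named genes: 1203, 872 and 1004 reads in control against 268, 398 and 343 with the factors, 32.8% of the control mean. The fitted change was -1.61 ± 0.15 (adjusted p = 5.03e-05), and the pairs differed in size, at -2.16, -1.13 and -1.55.

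The remaining neural genes changed less and their groups overlapped. Islet (KH.L152.2), a LIM homeodomain factor of motor neurons and other cells, had 313, 408 and 343 normalised reads in control and 144, 292 and 314 with the factors. Replicate 1 carried most of its decrease, with pairs at -1.11, -0.48 and -0.12. The fitted change was -0.57 ± 0.16 (adjusted p = 0.0353). It missed the threshold without replicate 1 (-0.30, adjusted p = 0.0668), without replicate 2 (0.0678) and without the block (0.517), in a range of 6.15e-04 to 0.517 over 11 alternatives. Msx (KH.C2.957), a homeodomain factor of the neural plate border, had 977, 1486 and 1792 reads in control and 778, 1411 and 1136 with the factors. Replicate 1 was the lowest library of both groups, and the change within pairs was -0.33, -0.07 and -0.66. The fitted value was -0.35 ± 0.10 (adjusted p = 0.0354), lost without replicate 3 (-0.20, adjusted p = 0.159) or without the block (0.794), in a range of 6.19e-04 to 0.794.

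**Figure D2:**
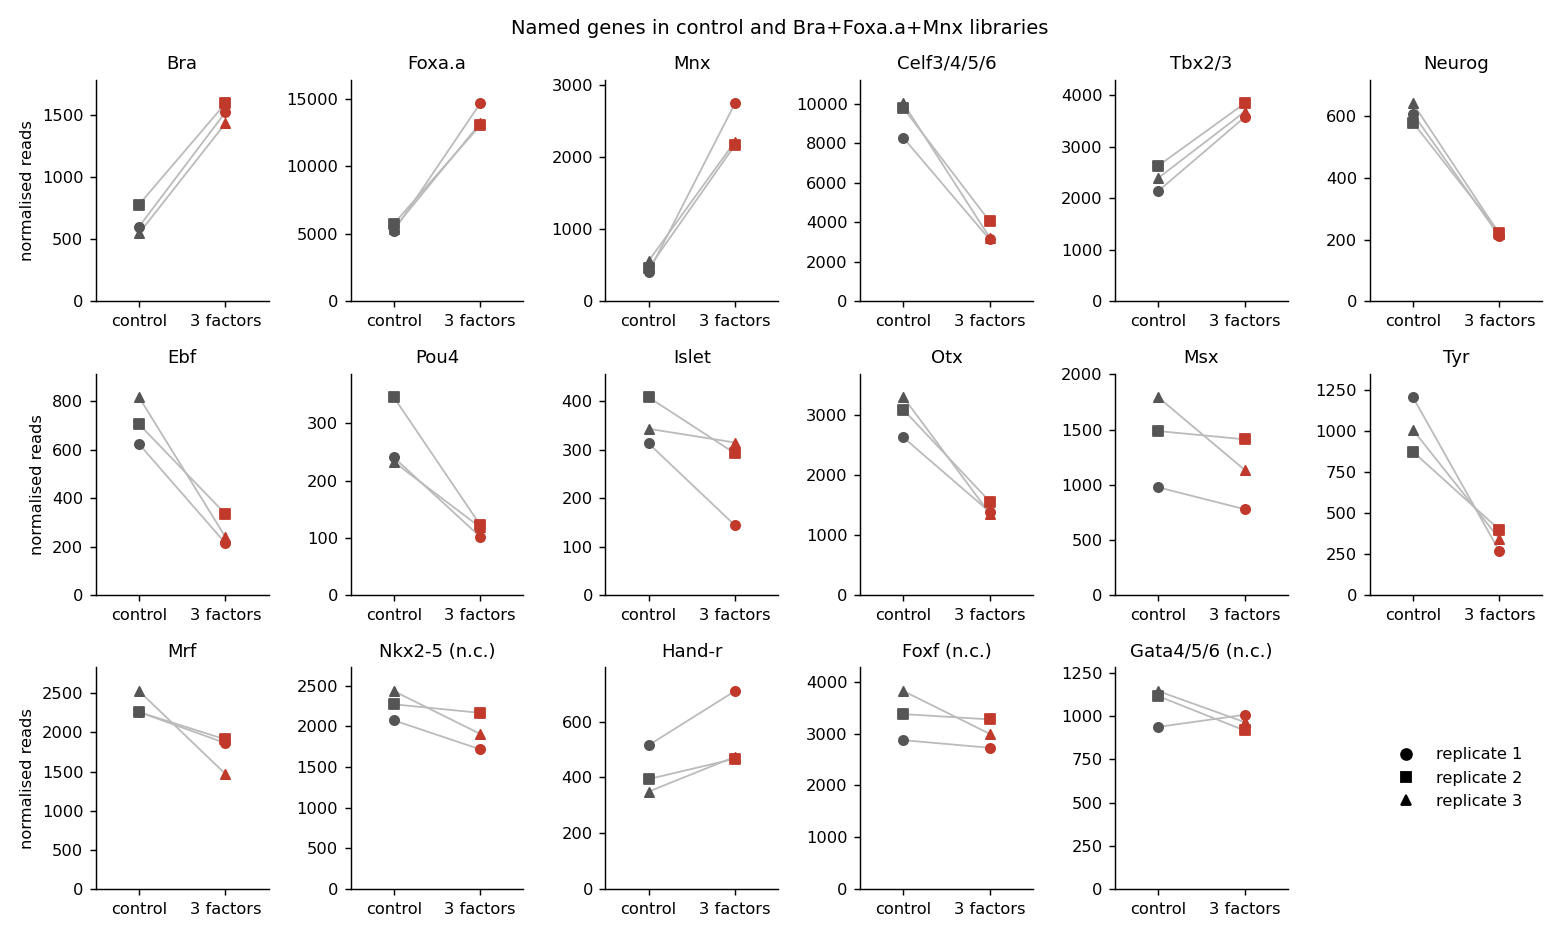
Normalised reads (y axis, from 0) of the 17 named genes in control (grey) and Bra+Foxa.a+Mnx (red) libraries, with marker shape for the replicate number, lines between same-numbered libraries and n.c. for genes that were not called. The grey and red points are apart in 11 panels, among them Celf3/4/5/6, Neurog, Ebf, Pou4, Otx and Tyr, and mix for Islet, Msx and the 4 cardiac genes.

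The 1 listed muscle gene and the 4 listed cardiac genes changed less than most of the listed neural genes. No genes of further tissues were listed. Mrf (KH.C14.307), the myogenic regulatory factor of tail muscle, had 2261, 2260.3 and 2529 normalised reads in control and 1864, 1911 and 1470.2 with the 3 factors. The groups did not overlap, and the log2 change was -0.43 ± 0.10 (adjusted p = 0.0126). It was -0.26 without replicate 3, where it was still called, and the call was lost without the block (adjusted p = 0.116, in a range of 5.57e-07 to 0.116). Of 4 genes known from the heart and its progenitors, 1 rose and 3 were not called, with a list median of -0.15, beside 7.86% of all tested genes called higher and 6.68% lower. Hand-r (KH.C1.1116), a basic helix-loop-helix factor, rose from 516, 394 and 349 to 710.2, 467 and 474 reads. The groups overlapped, yet each pair increased, by 0.46, 0.24 and 0.44, and the fitted change was 0.38 ± 0.08 (adjusted p = 0.0105). This call too was lost without the block (adjusted p = 0.590, in a range of 0.00167 to 0.590).

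The other cardiac genes did not pass the test. Nkx2-5 (KH.C8.482), a homeodomain factor, had 2075, 2273 and 2435 normalised reads in control and 1718, 2167 and 1908 with the factors (-0.23 ± 0.07, adjusted p = 0.0530). It was called with TMM scaling (0.0444) and without replicate 1 (0.0447), in a range of 0.0444 to 0.520. Foxf (KH.C3.170), a forkhead factor, had 2873, 3377 and 3822 reads against 2726, 3274 and 2996 (-0.16 ± 0.07, adjusted p = 0.212). Its 95% interval ran from -0.32 to 0.01. Gata4/5/6 (KH.L20.1), a zinc finger factor, had 938, 1117 and 1146 reads against 1008, 918 and 966, with pairs in opposite directions (0.10, -0.28 and -0.25) and a fitted value of -0.14 ± 0.08 (adjusted p = 0.341, interval -0.33 to 0.05). Without replicate 1 it was called lower (-0.26, adjusted p = 0.0142, in a range of 0.0142 to 0.845). Of all 17 named genes 5 rose, 9 fell and 3 were not called, beside 7.86% higher and 6.68% lower among all tested genes. The groups did not overlap in 11 of the 17, and in 16.9% of all tested genes (9.32% higher and 7.53% lower). The 5 and the 11 both include the 3 electroporated genes, which were given as plasmids. These counts describe the list without testing it.

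**Figure D3:**
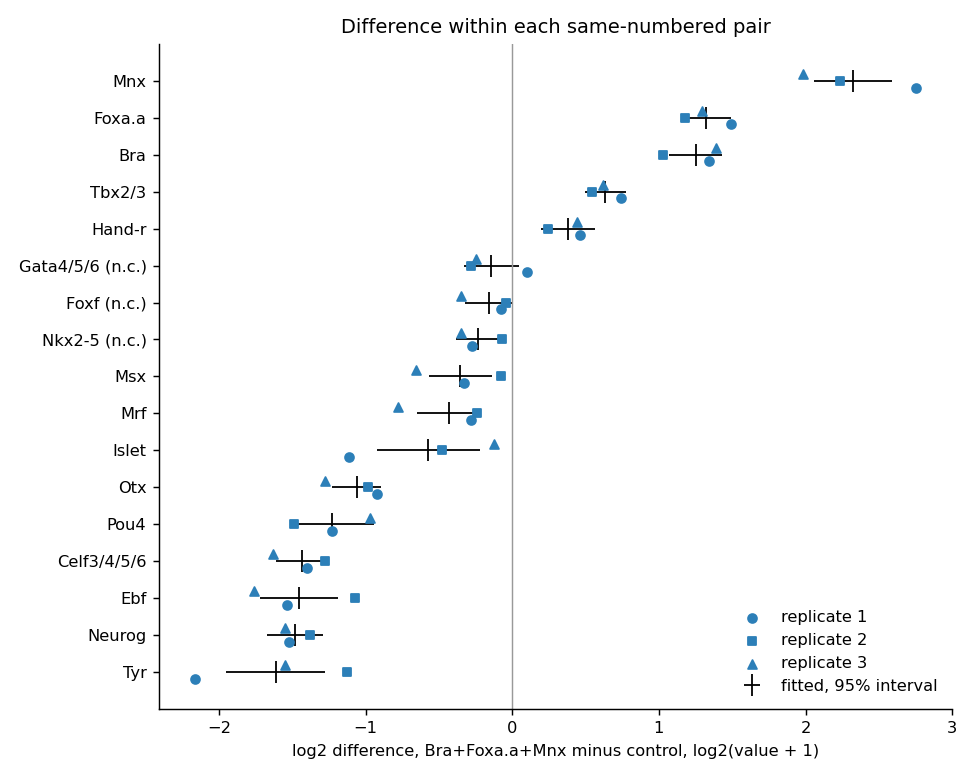
The log2 difference (x axis, 3 factors minus control, on log2(value + 1)) of each same-numbered pair for the 17 named genes, with marker shape for the pair, and the fitted value with its 95% interval in black. Genes marked n.c. were not called; the pairs of Neurog lie between -1.55 and -1.38, whereas those of Tyr spread from -2.16 to -1.13 and those of Islet from -1.11 to -0.12.

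By a rule of size, 4 further gene models were picked: those with the largest changes among called genes with a mean of at least 20 normalised reads in both groups and the same direction in all 3 pairs. The files give them no name, and their values are a description, since the rule chose them for their change. KH.C11.709 had 18.2, 26.8 and 25.0 reads in control and 2416, 1621 and 2632 with the 3 factors, 95.2 times the control mean (log2 change 6.50 ± 0.18). KH.C8.811 had 27.7, 33.0 and 7.62 in control and 752, 635 and 804 with the factors (5.16 ± 0.34). Both were low in each control library and high in each 3-factor library. KH.S595.17 fell from 122, 85.7 and 114 to 20.9, 37.0 and 17.99 reads (-2.09 ± 0.27). KH.L144.12 fell from 692, 809 and 730.2 to 101, 281 and 229.7 (-1.98 ± 0.19). Replicate 1 had the lowest 3-factor value of KH.L144.12, and pair 2 the smallest decrease of KH.S595.17.

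To see where the 3-factor embryos differ from embryos given fewer factors, all 15 libraries were put on 1 scale and fitted together, and each difference between groups was tested directly over 14260 gene models. The 3-factor libraries are the same in each test, so the tests share samples. Against Bra alone, 364 gene models (2.55%) were higher and 564 (3.96%) lower with the 3 factors, 6.51% in all. Against Bra+Foxa.a, where only Mnx was added, 55 (0.386%) were higher and 255 (1.79%) lower, 2.17% in all. Against Bra+Mnx, where only Foxa.a was added, 151 (1.06%) were higher and 109 (0.764%) lower, 1.82% in all. Of the genes lower than in Bra+Foxa.a, 104 were at least 2-fold lower, beside 15 at least 2-fold higher. The counts fell without the replicate block, to 120, 33 and 18 in the same order, and a fit of only the 6 libraries concerned gave 645 calls against Bra+Foxa.a. Without replicate 2 the counts were 551, 143 and 100, and without replicate 1 they were 565, 185 and 175.

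On this common scale the electroporated genes were highest where their plasmids had been given. Mnx had 2798, 2204 and 2252 normalised reads in 3-factor embryos, 366, 448 and 403 with Bra, and 224, 343 and 278 with Bra+Foxa.a. It was higher with the 3 factors than with Bra by 2.57 ± 0.19 (adjusted p = 3.36e-07) and than with Bra+Foxa.a by 3.11 ± 0.19 (adjusted p = 3.79e-08). The Bra+Mnx libraries were uneven, at 1468, 1453 and 2949.9 reads, and Mnx did not differ from them by the test (0.38 ± 0.19, adjusted p = 0.498). Without replicate 3 that difference was 0.77 and was called (adjusted p = 0.0183, in a range of 0.0183 to 1). Foxa.a had 14949.9, 13250.3 and 13405 reads with the 3 factors and 8036, 7698 and 9953 with Bra+Mnx, a difference of 0.70 ± 0.10 (adjusted p = 5.98e-04). It had 6792, 8334 and 6531 with Bra (0.95 ± 0.10, adjusted p = 8.36e-06). Against Bra+Foxa.a, with 11928, 11676 and 12459.9 reads, the difference of 0.20 ± 0.10 did not pass (adjusted p = 0.525).

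Bra itself was given to all 4 of these groups and was still highest with the 3 factors, at 1550.4, 1618 and 1454 normalised reads. The Bra group had 963, 1449 and 798 reads, and the difference of 0.57 ± 0.11 was called (adjusted p = 0.00265). It was not called without replicate 1 (adjusted p = 0.0562) or without the block (0.289), in a range of 1.26e-04 to 0.289. Bra+Foxa.a libraries had 1202, 1332 and 1090.3 reads (difference 0.35 ± 0.11, adjusted p = 0.137), and Bra+Mnx libraries 1083, 1279 and 1243 (0.36 ± 0.11, adjusted p = 0.133). Every 3-factor library was above every library of either group, although neither difference passed in the fit of 15 libraries. Fits of the 6 libraries concerned called both (adjusted p = 0.00178 in a range of 0.00178 to 1, and 0.0414 in a range of 0.0414 to 1). Measured Bra levels were thus highest in the 3-factor libraries, but only the difference from Bra alone passed in the fit of 15 libraries. The part of the Bra level in the other differences between these groups was not tested.

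Celf3/4/5/6, the driver gene, was lower in every group given Bra than in control. Its group means were 3530.3 ± 507 normalised reads with the 3 factors, 3934 ± 503 with Bra+Foxa.a, 4149 ± 305 with Bra+Mnx, 5649.6 ± 597 with Bra and 9522 ± 953 in control (SD, n = 3). The 3-factor level was lower than that of Bra by 0.68 on the log2 scale (adjusted p = 7.06e-05). The differences from Bra+Foxa.a (-0.16, adjusted p = 0.634, interval -0.34 to 0.03) and from Bra+Mnx (-0.24, adjusted p = 0.263) did not pass.

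Most of the neural genes were lower with the 3 factors than with Bra alone: 6 of 7 fell, beside 3.96% of all tested genes, with a median difference of -0.62 beside 0.0039 for all genes. Neurog had 349, 385 and 296 normalised reads with Bra and 215, 227 and 222 with the 3 factors (-0.62, adjusted p = 0.00158). Ebf had 443, 497 and 442 against 219, 340.4 and 244 (-0.80, adjusted p = 2.42e-04). Tyr had 779, 562 and 583 against 273, 405 and 348 (-0.91, adjusted p = 0.00120). In these 3 genes, and in Pou4 and Otx, each 3-factor library was below each Bra library. The share of all tested genes without overlap was not counted for this comparison, so this describes the genes and nothing more. Pou4 (-0.84, adjusted p = 4.83e-04), Otx (-0.53, adjusted p = 4.47e-04) and Msx (-0.47, adjusted p = 0.00172) fell as well, and all 3 calls were lost without the block (0.123, 0.0696 and 1). Their adjusted p over the alternatives ran from 2.87e-06 to 0.123 for Pou4, from 8.38e-07 to 0.0696 for Otx and from 5.82e-05 to 1 for Msx. Islet did not pass (-0.11, interval -0.45 to 0.24).

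Few of the neural genes passed the test when only 1 partner was added. Against Bra+Foxa.a, where 1.79% of all tested genes were lower, 1 of 7 fell. This was Msx (-0.37, adjusted p = 0.0264), a call lost without any 1 replicate number or without the block (range 0.00139 to 1). The other 6 had differences whose intervals included 0, such as -0.09 for Neurog (-0.33 to 0.15) and -0.01 for Ebf (-0.26 to 0.24). Neurog had 206, 256 and 249 normalised reads with Bra+Foxa.a, a range that takes in the 3-factor libraries. Against Bra+Mnx, where 0.764% of all tested genes were lower, 0 of the 7 passed in limma, with a list median of -0.30. In limma 4 had an unadjusted p under 0.05. The share of all genes at that threshold was not counted, so the 4 have no background to be read against. Of the 7, edgeR called 0 and DESeq2 called 1. Among all 14260 gene models edgeR called 313 and DESeq2 324, in either direction. Neurog was nearest, with 338, 288 and 269 reads in Bra+Mnx, all above the 3-factor libraries (-0.42, adjusted p = 0.0685), and it was the gene that DESeq2 called (0.0465, in a range of 0.0465 to 0.754). An absence of calls does not show that the levels are alike.

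Tbx2/3 was higher with the 3 factors than with Bra alone by 0.28 (adjusted p = 0.0466), although replicate 2 of Bra, at 3861 normalised reads, lay within the 3-factor range of 3640.3 to 3903. That call was lost with TMM scaling, with edgeR, without a filter, without replicate 1 or 3, with only the 6 libraries and without the block, in a range of 0.0067 to 0.696. The difference from Bra+Foxa.a was 0.05 (interval -0.12 to 0.23) and from Bra+Mnx 0.23 (adjusted p = 0.233). Hand-r was higher than with Bra by 0.29 (adjusted p = 0.0277), a call lost without any 1 replicate number, with only the 6 libraries and without the block (range 0.0187 to 1). Mrf was lower than with Bra (-0.37, adjusted p = 0.0362), lost without replicate 1 or 2 or the block (range 0.00531 to 0.525).

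**Figure D4:**
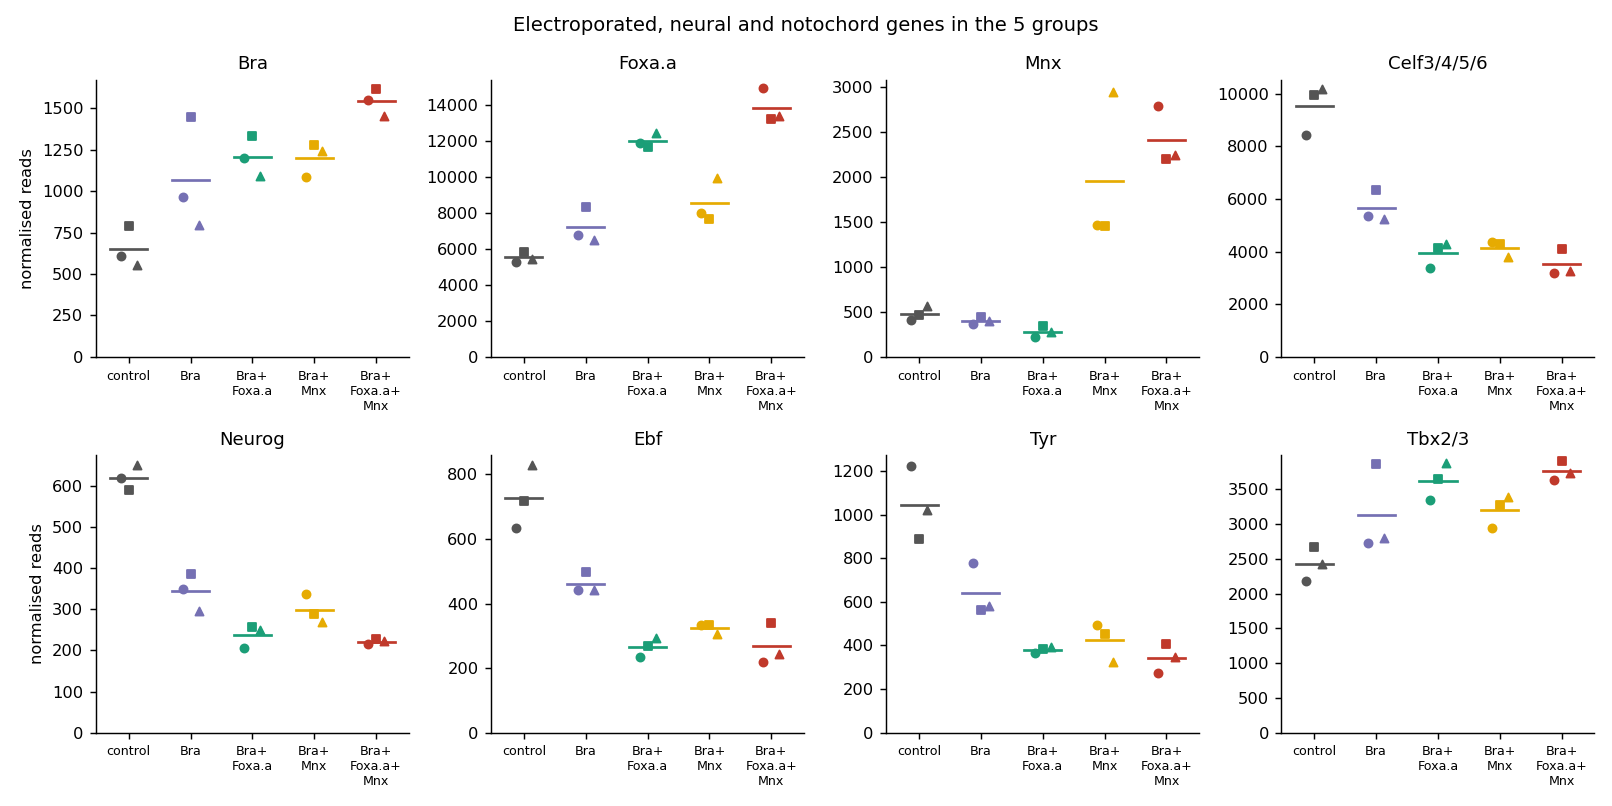
Normalised reads on the common scale (y axis, from 0) of 8 named genes in the 5 groups, with marker shape for the replicate number and a line at each group mean. Celf3/4/5/6, Neurog, Ebf and Tyr have their highest mean in control and their next highest with Bra, and for Neurog the Bra+Mnx libraries lie above all Bra+Foxa.a and 3-factor libraries; Mnx is highest in the 2 groups given Mnx.

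The gene models picked by the same rule of size in these comparisons were chosen for those differences, and again the values describe what the rule chose. Whether a difference goes with a partner is not tested by them. KH.C2.978 was picked above Bra+Mnx. It had a mean of 44.7 normalised reads in control, 287 for Bra, 281 for Bra+Mnx, 2173 for Bra+Foxa.a and 1504 for the 3 factors. Its 3-factor libraries had 1577, 1090.3 and 1845 reads, against 176, 224 and 444 with Bra+Mnx (2.50 ± 0.18). It was high in both groups given Foxa.a, and those did not differ by the test (-0.55 ± 0.18, adjusted p = 0.164). KH.C10.322 had a mean of 43.9 in control, 55.4 with Bra, 96.3 with Bra+Mnx, 353 with Bra+Foxa.a and 316 with the 3 factors. It had 280.0, 428 and 242 reads in the 3-factor libraries, above Bra by 2.46 ± 0.29 and above Bra+Mnx by 1.77 ± 0.29, and the latter call was lost without the block (adjusted p = 0.219, range 8.31e-05 to 0.219).

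KH.C11.373 was the gene model the rule picked above Bra+Foxa.a apart from Mnx. It had 30.8, 29.7 and 59.5 normalised reads with Bra+Foxa.a and 211, 131 and 221 with the 3 factors (2.24 ± 0.34), a call lost without the block (adjusted p = 0.0838, range 5.90e-12 to 0.0838). Its means were 9.75 in control, 15.1 with Bra and 82.7 with Bra+Mnx. The 3-factor mean of 188 was the highest of the 5, though the difference from Bra+Mnx did not pass (1.29 ± 0.34, adjusted p = 0.0636).

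Other gene models were lower with the 3 factors than with fewer. KH.C7.395 was highest with Bra alone, at 249, 455 and 501 normalised reads, and had 34.4, 37.6 and 25.8 with the 3 factors (-3.54 ± 0.26). Its means were 17.5 in control, 114 with Bra+Foxa.a and 79.5 with Bra+Mnx, so each group with a partner was below Bra. The 3-factor group was also lower than Bra+Foxa.a (-1.74 ± 0.26, adjusted p = 8.27e-04) and Bra+Mnx (-1.25 ± 0.26, adjusted p = 0.0157), and it was above control by 0.85 ± 0.26. That last difference was called in the fit of all 15 libraries (adjusted p = 0.0310) and not in the fit of the 6 libraries (adjusted p = 0.0565). KH.S908.3 had 472, 231 and 323 reads with Bra+Foxa.a and 45.8, 33.9 and 68.8 with the 3 factors (-2.76 ± 0.23). KH.L154.54 had 206, 198 and 395 with Bra+Foxa.a and 35.2, 27.9 and 112 with the 3 factors (-2.37 ± 0.31), lost without the block (adjusted p = 0.566, range 2.69e-13 to 0.566). The means of KH.S908.3 were 28.1 in control, 118 with Bra and 42.1 with Bra+Mnx, and those of KH.L154.54 were 12.02, 80.1 and 33.9 in the same order. Bra+Foxa.a was the highest group for both.

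KH.L147.40 went the other way round. It had 213, 342 and 370.1 normalised reads with Bra+Mnx, a mean of 222 with Bra, and 38.5, 76.3 and 50.5 with the 3 factors, below Bra+Mnx by 2.48 ± 0.16 on the log2 scale. Its mean was 36.1 with Bra+Foxa.a and 24.4 in control, so it was low in both groups given Foxa.a. KH.C10.588 was picked against Bra and against Bra+Mnx and is the least even of these. Its 3-factor libraries had 257, 4.85 and 29.0 reads, its Bra libraries 465, 216 and 375 and its Bra+Mnx libraries 579, 138 and 429, so the groups overlapped. The differences of -3.24 ± 0.79 and -3.19 ± 0.79 rest on replicates 2 and 3: without replicate 2 the first was -2.25 and was not called (adjusted p = 0.338, range 1.11e-05 to 0.605). The second missed the threshold without replicate 2, without replicate 3, without a filter, in DESeq2 and without the block (range 1.08e-04 to 1).

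**Figure D5:**
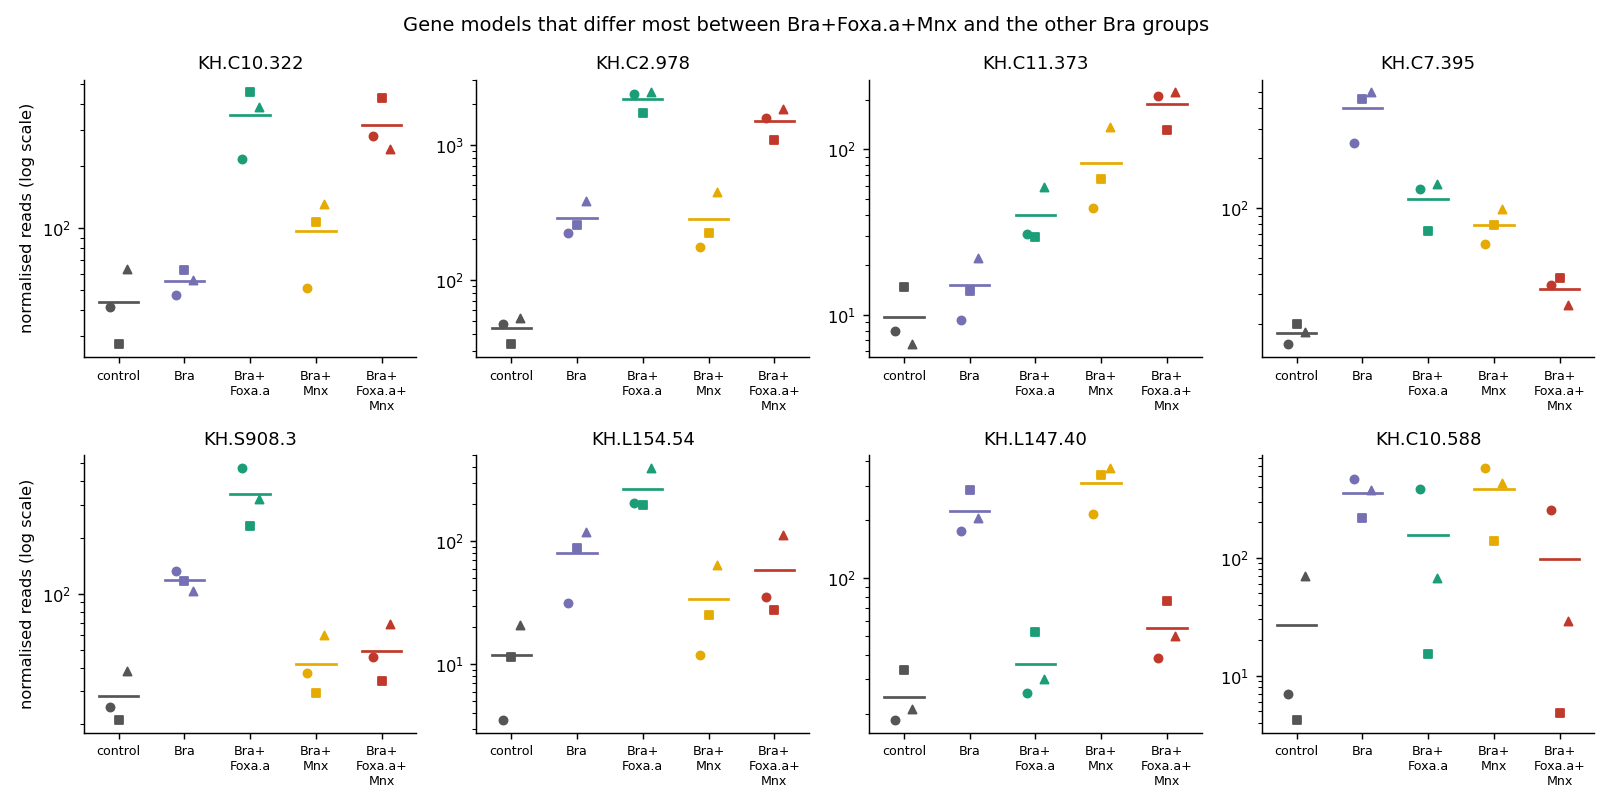
Normalised reads on the common scale (y axis, logarithmic) of 8 gene models picked for their difference between the 3-factor group and another Bra group, with marker shape for the replicate number and a line at each group's arithmetic mean. KH.C2.978 and KH.C10.322 are high in the 2 groups given Foxa.a, KH.S908.3 and KH.L154.54 are highest with Bra+Foxa.a, KH.L147.40 is high with Bra and Bra+Mnx, and the replicates of KH.C10.588 spread widely.

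The 4 gene models picked against control were not among these. Each Bra group's own change is given for them, and all 4 changes share the same control libraries. KH.C11.709 was above control by 6.50 on the log2 scale with the 3 factors, 6.50 with Bra+Mnx, 6.61 with Bra+Foxa.a and 6.23 with Bra. The 3-factor level did not differ from any of the other Bra groups by the test (differences of 0.27, -0.11 and 0.01, intervals from -0.47 to 0.64). KH.C8.811 was above control by 5.16, 5.52, 4.52 and 4.43 in the same order. KH.S595.17 stood at -2.09, -1.45, -2.08 and -0.98 against control. It was lower with the 3 factors than with Bra (-1.11 ± 0.25, adjusted p = 0.0107). KH.L144.12 stood at -1.98, -1.61, -1.79 and -1.01, and it too was lower with the 3 factors than with Bra (-0.97 ± 0.19, adjusted p = 0.00300). Neither differed from Bra+Foxa.a or Bra+Mnx by the test.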

How the data were processed

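RNA of whole embryos was sequenced from stranded mRNA libraries, per the labels' protocols. TopHat2 2.9.8b and DESeq 1.8.1 stand in the submitters' processing notes. Genome build, read counter and strand setting, not given in the sources used here, leave overlapping or near-identical gene models uncertain. The authors deposited a non-negative signal: 4 tables of 15284 gene models, each normalised on its own. In all 24 columns used, 100% of values were whole multiples of 1 step within a tolerance of 0.01, and these whole reads were recovered. The 24 log columns were not used.

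The comparison with control used limma 3.58.1 (R 4.3.3, trend) on log2(value + 1) of the 6 libraries of 1 table, for gene models with a mean of at least 1. The replicate number was a block, since the plan of the comparison pairs same-numbered replicates. Benjamini-Hochberg adjustment ran over all tested genes. A gene was called at an adjusted p under 0.05. For the comparisons between Bra groups, recovered reads were scaled by median-of-ratios size factors computed over all 15 libraries, which were fitted together. edgeR 4.0.16 (quasi-likelihood) on the recovered reads called 1167 genes higher and 991 lower than control, and DESeq2 1.42.0 called 850 and 684. The procedure was tested on simulated data. The members and lists were chosen with earlier results of these data known. Gene models beyond the 17 listed were picked as the 2 largest changes in each direction among called genes with a mean of at least 20 in both groups and 1 direction in all 3 pairs. A reference table used here (assembly ASM961781v2) matched none of the KH identifiers.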

Additional observations from a re-analysis of the deposited data

How the results depend on the processing

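Calls against control depended most on the replicate block: without it 401 gene models were higher and 165 lower, and 120, 33 and 18 were called against Bra, Bra+Foxa.a and Bra+Mnx. Every call without the block was also made with it. Leaving out each replicate number in turn gave 880 to 1218 higher and 614 to 1235 lower against control, 551 to 799 calls against Bra, 143 to 185 against Bra+Foxa.a and 100 to 215 against Bra+Mnx. With only the 6 libraries concerned, 645 were called against Bra+Foxa.a. Pseudocount 0.5, no filter, a filter at a mean of 10, TMM scaling, edgeR, DESeq2 and, for control, a fit of all 15 libraries kept each count within 1.5 times. For the 17 named genes against control, the 11 alternatives gave 154 values for the called genes, of which 7 lost the call, and 33 for the genes not called, of which 3 gained one, and none of these values reversed. Against the other Bra groups, 10 values changed sign when a replicate number was left out, all of them for uncalled differences. The ranges of these differences against Bra were -0.467 to 0.155 for Islet, -0.0641 to 0.0337 for Foxf and -0.0905 to 0.157 for Gata4/5/6 (2 of its values reversed, the other being -0.0360). Against Bra+Foxa.a they were -0.181 to 0.117 for Ebf (the other reversed value 0.0387), -0.0822 to 0.110 for Mrf and -0.135 to 0.00126 for Hand-r. Against Bra+Mnx they were -0.217 to 0.1997 for Islet and -0.0218 to 0.0754 for Mrf. The cause was not tested. Below 20 normalised reads the median standard error against control was 0.472, so small changes could go uncalled there. Its part in the lower share of calls at that level was not tested.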
